A study of Mus musculus with 16 samples.

Results

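Runx1, Fli1, P2ry6, Pstpip1, Skap2 and Parp8 are 6 mouse genes grouped here under the name leukocyte regulators, a name that was not tested. They were described across fat and liver of offspring of obese and of control fathers. They were chosen by their measured log2 values, out of 19505 gene symbols on an Affymetrix mouse array, for being lower in eWAT of obese-father offspring than in that of control-father offspring. Each of the 6 was measured by 1 probe set. The lower values in eWAT are therefore given as a description with no test, while the values in liver and the differences between the tissues were not used in the choice in that way.

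All 16 libraries came from male C57BL/6J mice, an inbred laboratory strain, sampled at 14 weeks of age. The eWAT F1 group (n = 4) was white adipose tissue of offspring whose fathers were obese, having eaten a high-fat diet with 45% lipids for 12 weeks, starting when they were 8 weeks old. The eWAT CT group (n = 4) was the same tissue of offspring whose fathers had eaten chow. The Liver F1 group (n = 4) and the Liver CT group (n = 4) were livers of offspring of obese fathers and of control fathers, and the mothers in all 4 groups were control females. The libraries of a group are labelled as biological replicates, but which of them share a father, litter or cage is not stated, and p-values therefore measure the spread between these samples alone. Values are log2 expression from whole tissue, and a difference of 1 on this scale is a doubling.

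Leukocytes of a tissue, among them the macrophages of fat, are set up by a small group of transcription factors and act through surface receptors, adaptor proteins and enzymes. Runx1 and Fli1 are transcription factors of blood and endothelial development. Runx1 binds DNA together with its partner Cbfb, and Fli1 is a member of the ETS family. P2ry6 is a receptor for extracellular UDP that signals through G proteins. Pstpip1 and Skap2 are adaptor proteins that link signalling at the membrane to the actin skeleton, Skap2 in integrin signalling and Pstpip1 through the phosphatase Ptpn12 and the actin regulator Was. Parp8 belongs to the ADP-ribosyltransferase family and adds single ADP-ribose units.

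Because the choice joined genes with lower values in 1 tissue, the DNA before their starts was read for the short words that the ETS and RUNX families bind. RefSeq promoters of build GRCm38.p6 were matched for 4 of the 6 genes, Runx1 with both of its starts, which gave 5 windows of 250 bases before the start. The ETS words searched were CCGGAA and AGGAAG, the RUNX words were TGTGGT and TGCGGT, and each was searched on both strands. An ETS word stood in 4 of the 5 windows and a RUNX word in 0 of 5. Over all 32851 promoters of that table, cut to the same length, 38.2% held an ETS word and 18.6% a RUNX word. The windows with a match are shown 5′ to 3′ on the strand of the gene, ending at the last base before the start, with the ETS words in capitals. The first is the distal Runx1 start, chr16:92826075-92826324 on the minus strand, the second the proximal Runx1 start, chr16:92697330-92697579 on the minus strand, the third Pstpip1, chr9:56089726-56089975 on the plus strand, and the last Skap2, chr6:52012550-52012799 on the minus strand.
Runx1 distal: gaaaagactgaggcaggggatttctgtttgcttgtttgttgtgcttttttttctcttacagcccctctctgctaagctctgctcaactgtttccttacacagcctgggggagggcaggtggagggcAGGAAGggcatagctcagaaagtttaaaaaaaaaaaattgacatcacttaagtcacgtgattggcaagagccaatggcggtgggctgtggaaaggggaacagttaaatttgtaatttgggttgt
Runx1 proximal: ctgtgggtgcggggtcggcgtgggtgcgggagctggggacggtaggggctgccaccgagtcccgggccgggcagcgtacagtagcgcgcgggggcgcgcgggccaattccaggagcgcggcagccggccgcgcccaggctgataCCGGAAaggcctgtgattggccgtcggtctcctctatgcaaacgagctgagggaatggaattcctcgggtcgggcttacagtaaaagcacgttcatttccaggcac
Pstpip1: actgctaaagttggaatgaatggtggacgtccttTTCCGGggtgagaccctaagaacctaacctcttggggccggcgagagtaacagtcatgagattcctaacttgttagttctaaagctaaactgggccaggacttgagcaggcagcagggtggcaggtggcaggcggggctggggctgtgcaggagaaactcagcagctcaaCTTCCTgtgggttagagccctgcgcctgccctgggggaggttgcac
Skap2: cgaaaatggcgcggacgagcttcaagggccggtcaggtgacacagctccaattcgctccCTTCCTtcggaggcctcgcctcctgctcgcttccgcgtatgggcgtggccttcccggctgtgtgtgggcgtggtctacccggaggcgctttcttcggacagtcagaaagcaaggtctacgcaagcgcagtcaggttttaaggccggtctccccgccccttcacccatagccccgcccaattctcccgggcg
The capitals begin 124 bases before the distal Runx1 start and 106 bases before the proximal one. In the Pstpip1 window they begin 216 and 46 bases before the start, and in the Skap2 window 191 bases before it. The Parp8 window, chr13:117025532-117025781 on the minus strand, held neither kind of word. These matches describe letters and were not tested for binding.

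Some libraries stood apart by transcripts of other tissues, and these were set out before the genes were compared. Library eWAT F1 1 held transcripts of the seminal vesicle, with Svs2 at 16.22 against 2.47 to 4.88 in the other eWAT libraries, and library eWAT CT 4 held transcripts of testis and sperm, with Prm2 at 11.40. Albumin transcripts, which mark hepatocytes, were present at 16.95, 18.77, 16.65 and 19.07 in the eWAT F1 libraries and at 14.16, 12.43, 18.91 and 18.55 in the eWAT CT libraries. Library Liver F1 4 held transcripts of the pancreas, with Amy2a5 at 17.69. The adipocyte hormone Adipoq, a defining marker of the labelled fat, was bright in all 8 eWAT libraries, at 18.95 to 19.24.

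In eWAT all 6 genes were lower in F1 than in CT, and for each of them all 4 F1 libraries lay below all 4 CT libraries. That is the pattern the genes were chosen for; over all 14773 genes kept in eWAT, 3.01% had every F1 library below every CT library. The median difference of the 6 genes was -1.0, with a range of -1.25 to -0.74, beside a median of 0.00 over all kept genes. In whole tissue, fewer cells of a type and less RNA per cell cannot be told apart. No gene of the array passed an adjusted p of 0.05 in eWAT (limma, 0 of 14773, 0.0%), while 1476 genes (9.99%) had an unadjusted p under 0.05. The values of each gene follow, the transcription factors first.

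Runx1, whose probe set TC1600002097.mm.2 is on chromosome 16, stood at 8.85, 8.10, 8.58 and 8.54 in eWAT F1 libraries 1 to 4, against 9.58, 9.63, 9.42 and 9.92 in eWAT CT libraries 1 to 4. The groups did not overlap: the highest F1 library lay 0.57 below the lowest CT library. The means were 8.52 ± 0.31 in F1 and 9.64 ± 0.21 in CT (SD, n = 4 each), a difference of -1.12 or 2.17-fold lower in F1. In liver Runx1 was dimmer, with 4.91, 4.11, 5.27 and 5.50 in F1 and 4.91, 4.29, 4.58 and 4.86 in CT. The liver groups overlapped, and their difference of 0.29 ± 0.29 (SE) had a 95% confidence interval of -0.36 to 0.93 and an adjusted p of 0.821 (limma).

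Fli1, on chromosome 9 (probe set TC0900001987.mm.2), had 13.03, 13.35, 13.18 and 13.02 in eWAT F1 and 13.72, 13.90, 13.98 and 13.95 in eWAT CT. Its libraries were close together within each group, and the gap between the groups was 0.37. The difference was -0.74, which is 1.67-fold lower in F1 and the smallest among the 6 genes. In liver Fli1 had 7.96, 8.10, 7.85 and 7.22 in F1 and 8.40, 8.45, 7.98 and 7.62 in CT. F1 and CT livers overlapped, and the difference of -0.33 ± 0.25 (SE) had an interval of -0.88 to 0.22 (limma adjusted p = 0.752).

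The UDP receptor gene P2ry6, on chromosome 7 (probe set TC0700003829.mm.2), had 8.99, 9.05, 9.05 and 9.76 in eWAT F1 and 10.32, 10.90, 10.24 and 10.39 in eWAT CT. Library eWAT F1 4 was the highest of its group by a wide margin, yet it lay 0.48 below the lowest CT library. The means were 9.21 ± 0.37 in F1 and 10.46 ± 0.30 in CT (SD, n = 4 each), and the difference of -1.25 was 2.38-fold lower in F1, the largest of the 6. Without library eWAT F1 4 the difference was -1.43. In liver P2ry6 had 6.08, 5.65, 6.65 and 6.02 in F1 and 6.58, 6.13, 6.05 and 6.62 in CT. The liver groups overlapped (adjusted p = 0.809, limma; interval of the difference -0.77 to 0.28).

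Of the adaptors, Pstpip1, on chromosome 9 (probe set TC0900000679.mm.2), had 8.76, 8.61, 8.47 and 8.18 in eWAT F1 and 9.40, 9.24, 9.55 and 9.47 in eWAT CT. F1 was 1.88-fold lower, a difference of -0.91 with a gap of 0.48 between the groups. In liver it had 5.77, 5.16, 5.86 and 6.29 in F1 and 5.17, 6.14, 6.52 and 5.97 in CT. These ranges lay over each other, with an interval of -0.87 to 0.51 for the difference of -0.18 (limma adjusted p = 0.913).

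Skap2, on chromosome 6 (probe set TC0600002269.mm.2), had 11.87, 11.75, 11.81 and 11.69 in eWAT F1, against 12.68, 12.70, 12.26 and 12.50 in eWAT CT. The F1 libraries had the smallest spread of the 6 genes in fat (SD 0.08), the groups were 0.39 apart, and F1 was 1.69-fold lower. In liver Skap2 ran the other way, with 10.92, 11.49, 10.80 and 11.06 in F1 and 10.29, 10.75, 10.43 and 10.61 in CT. All 4 F1 livers lay above all 4 CT livers, by a gap of 0.05, a pattern found in 2.68% of the 14722 genes kept in liver. The liver difference was 0.55 ± 0.19 (SE), with an interval of 0.13 to 0.97 and an unadjusted p of 0.0155, and it did not pass after adjustment (limma adjusted p = 0.424).

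The ADP-ribosyltransferase gene Parp8, on chromosome 13 (probe set TC1300002725.mm.2), had 7.0, 7.25, 6.63 and 6.81 in eWAT F1 and 7.70, 8.56, 7.97 and 7.85 in eWAT CT. Library eWAT CT 2 was the highest, and the groups were 0.45 apart. The means of 6.92 ± 0.27 in F1 and 8.02 ± 0.38 in CT (SD, n = 4 each) differed by -1.10, or 2.14-fold lower in F1. In liver Parp8 had 4.99, 5.17, 5.19 and 5.60 in F1 and 4.84, 5.95, 4.79 and 5.13 in CT. The liver ranges overlapped, with a difference of 0.06 and an interval of -0.52 to 0.64 (limma adjusted p = 0.971).

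**Figure D1:**
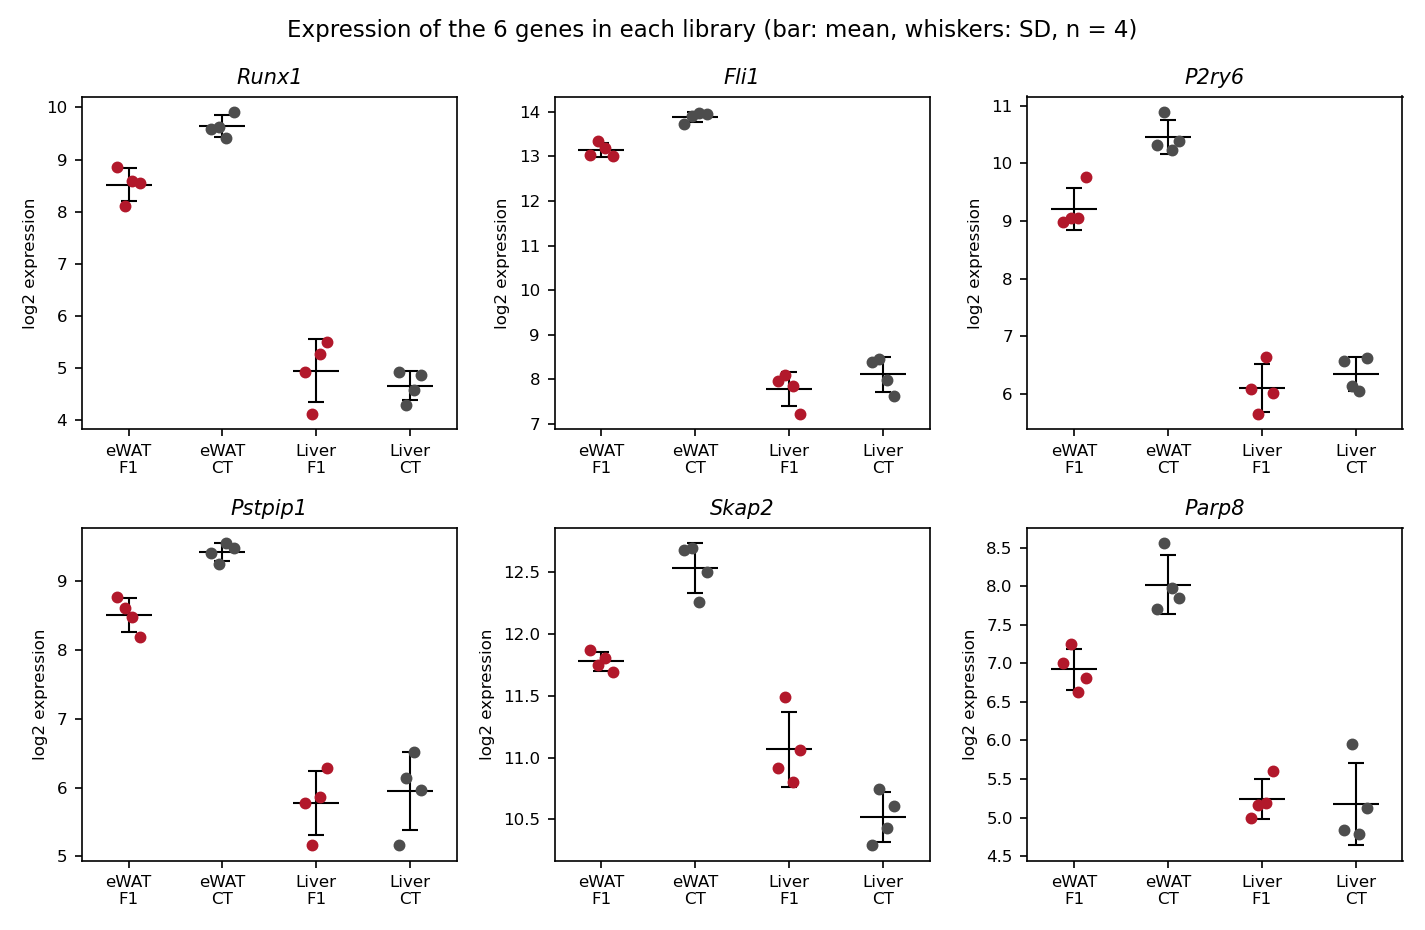
Log2 expression of each of the 6 genes (vertical axis, 1 panel per gene) in the 4 groups, with a dot per library, a bar at the mean and whiskers for the SD (n = 4). In eWAT every F1 dot lies below every CT dot, which the choice of the genes fixed; in liver the groups overlap for all but Skap2, whose 4 F1 dots lie above its 4 CT dots by 0.05.

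Among the genes kept in the whole eWAT comparison the 6 lay near the low end: 0.3% of kept genes had a lower F1 minus CT difference than P2ry6, 0.58% than Runx1, 0.64% than Parp8, 1.32% than Pstpip1, 2.5% than Skap2 and 2.66% than Fli1. These ranks restate the choice. In liver, which the choice did not use, 3 of the 6 genes were lower in F1 and 3 higher, with a median of -0.06 and a range of -0.33 to 0.55. None of the 6 passed the test in liver (limma), where 23 of 14722 genes did (0.156%), and 1 of them, Skap2, had an unadjusted p under 0.05, beside 9.14% of all kept genes. In that tissue 96.09% of kept genes had a lower difference than Skap2 and 85.81% a lower one than Runx1. Fli1, at the other end, had 11.06% of genes below it. The lower ends of the 95% intervals in liver ran between -0.88 for Fli1 and 0.13 for Skap2 and the upper ends between 0.22 for Fli1 and 0.97 for Skap2.

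**Figure D2:**
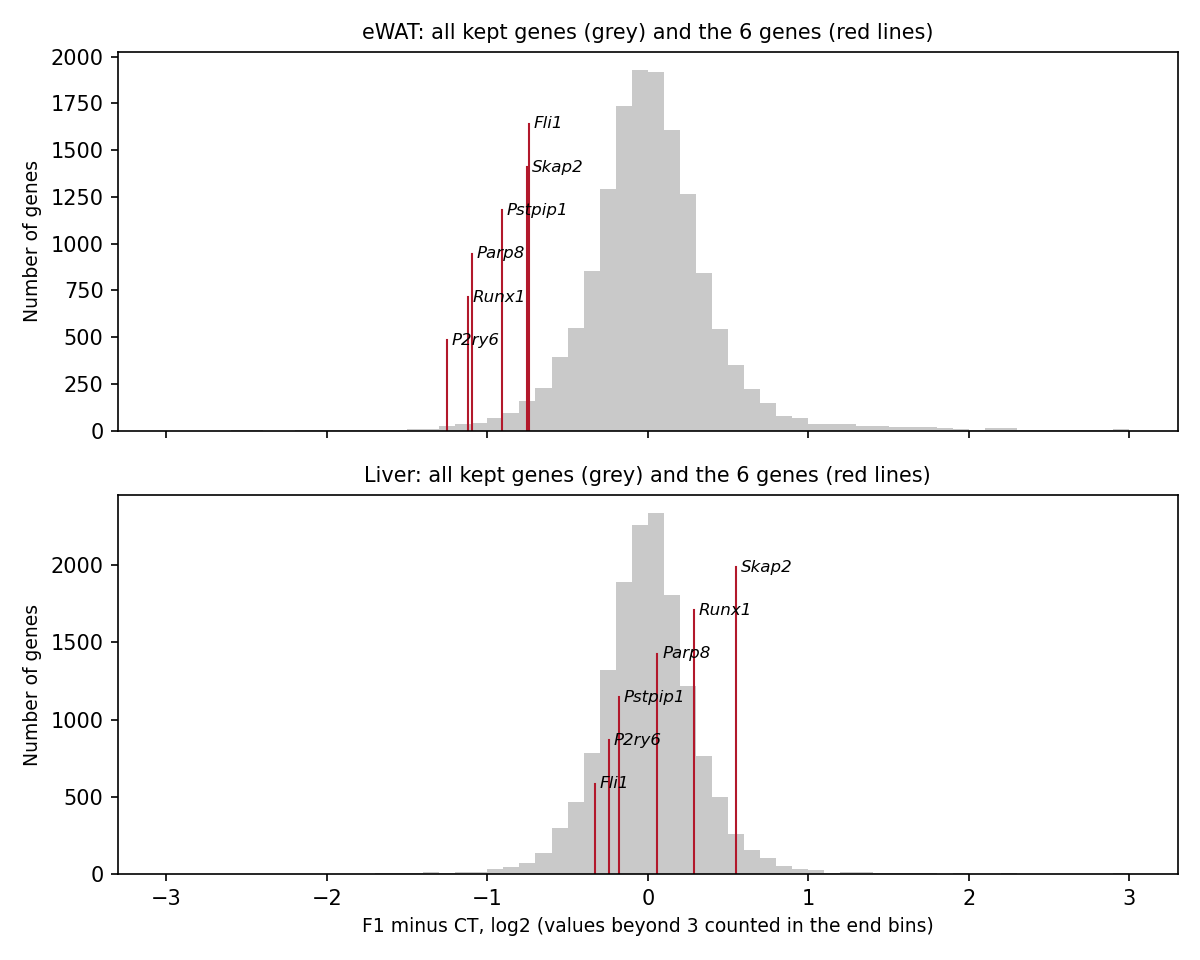
Number of kept genes (vertical axis) by their F1 minus CT difference on the log2 scale (horizontal axis), in eWAT above and in liver below, with the 6 genes as red lines whose heights carry no meaning. In eWAT the 6 lines lie between -1.25 and -0.74; in liver they are spread between -0.33 and 0.55 on both sides of 0.

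The 6 genes were next compared between the tissues, averaged over F1 and CT, after the 16 libraries had been brought to a common distribution by quantile normalization. All 6 were higher in eWAT than in liver at an adjusted p under 0.05, as were 38.9% of the 14764 genes tested. Fli1 differed most, with 13.33 ± 0.50 in eWAT and 8.58 ± 0.39 in liver (SD, n = 8 each), a difference of 4.75 ± 0.15 (SE) or 26.9-fold (limma adjusted p = 5.17e-15). Only 3.35% of the tested genes had a larger difference.

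Runx1 averaged 8.44 ± 0.69 in eWAT and 5.20 ± 0.71 in liver, 9.46-fold higher in eWAT. P2ry6 was 4.98-fold and Pstpip1 3.45-fold higher in eWAT, and for these 4 genes all 8 eWAT libraries lay above all 8 liver libraries. Parp8 averaged 6.79 ± 0.67 in eWAT and 5.79 ± 0.46 in liver, a 2.01-fold difference (limma adjusted p = 1.68e-04) with overlap between the tissues. Skap2 was the most evenly spread, with 11.76 ± 0.49 in eWAT and 11.24 ± 0.35 in liver, 1.43-fold higher in eWAT (limma adjusted p = 0.00120). When each library was instead centred on its median, the Skap2 difference was 0.13 and did not pass (limma adjusted p = 0.383), and the other 5 calls stayed. The scaling matters because the deposited values of the tissues appeared to be normalized apart: the median difference over all tested genes was 0.00 after quantile normalization, 0.83 in the values as deposited and -0.41 after median centring. The genes were chosen on F1 against CT in eWAT, over which this comparison averages. That choice still favoured genes with a small spread within the eWAT groups. The spread enters the SE and p-values given here, which may therefore be too small.

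The markers of leukocytes as a whole were examined beside the 6 genes. Of 17 leukocyte markers, 15 were lower in eWAT F1 than in eWAT CT, with a median difference of -0.47, where 50.36% of all kept genes were lower. Every F1 library lay below every CT library for 7 of the 17, against 3.01% of kept genes. They were Laptm5, Lcp1, Fcer1g, Cd52, Dock2, Arhgdib and Hcls1. None of the 17 passed the test over all genes (limma), and 7 had an unadjusted p under 0.05, against 9.99% of kept genes. The summed level of the list was 16.23 to 16.85 in F1 and 17.19 to 17.63 in CT, without overlap. Bright markers such as Laptm5, 1 of those 7, weigh most in this sum, so it partly restates them. The pan-leukocyte phosphatase Ptprc differed by -0.45, the tetraspanin gene Cd53 by -0.39 and the lysosomal membrane protein gene Laptm5 by -0.66 (15.44 in F1 and 16.09 in CT), while the actin-binding protein gene Coro1a differed by 0.00. No leukocyte marker fell below the 25th percentile of the array in eWAT. The part of the leukocyte markers in the lower values of the 6 genes was not tested.

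By cell type the marker lists differed in how many members were lower in eWAT F1. Of 23 macrophage markers 19 were lower, with a median of -0.40, and their summed level of 16.79 to 17.64 in F1 overlapped that of 17.48 to 18.54 in CT. Adgre1, a defining surface protein gene of mouse macrophages, averaged 11.32 in F1 and 12.45 in CT, but its groups overlapped (limma adjusted p = 0.389). Mrc1 and Cd163, both scavenging receptors of resident macrophages, differed by -0.21 and 0.31. Of 6 dendritic cell markers 5 were lower, with a median of -0.37.

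For other leukocytes the counts were nearer to even. In eWAT 7 of 11 T and NK cell markers, 3 of 7 B cell markers, 3 of 6 mast cell markers and 3 of 6 neutrophil markers were lower in F1. Among the T and NK cell markers the differences lay between -0.96 for Il7r and 0.53 for Cd3e. Cd8a, a co-receptor gene of cytotoxic T cells, differed by -0.84 with overlap (limma adjusted p = 0.389). Cd8b1, the gene of the other chain of that co-receptor, differed by 0.295 and Nkg7 by 0.52, both with overlap. Cd8a was the 1 of these 11 markers with an unadjusted p under 0.05 (limma), beside 9.99% of all kept genes. The neutrophil genes S100a8, Camp and Ngp were too dim in eWAT to be kept.

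Runx1 and Fli1 are also made by endothelial cells and their precursors, so that list was read too. Of 11 endothelial markers 7 were lower in eWAT F1, with a median of -0.18, and the summed level was 16.18 to 16.69 in F1 and 16.42 to 16.57 in CT. Pecam1 differed by -0.01 and Cdh5, the endothelial cadherin gene, by -0.18. Of 8 fibroblast and progenitor markers 7 were lower in eWAT F1, with a median of -0.125. Their summed level was 18.49 to 18.69 in F1 and 18.46 to 18.86 in CT. Of 11 adipocyte markers 9 were higher in F1 and 2 lower, with a median of 0.085 and Lep lowest at -0.63. Their summed level was 21.82 to 21.89 in F1 against 21.72 to 21.88 in CT. Of 13 hepatocyte markers 12 were higher in F1, with a median of 1.98 and a summed level of 16.92 to 19.76 in F1 against 12.76 to 19.23 in CT.

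Each of the 6 genes was recomputed without the libraries that stood apart, an alternative chosen after seeing the data. Without the library with seminal vesicle transcripts (eWAT F1 1) and the one with testis transcripts (eWAT CT 4), the median of the 6 was -1.06. Without the libraries lowest in albumin transcripts (eWAT CT 1 and CT 2), the median was -1.0, and Skap2 had the smallest difference at -0.60. The direction could not turn in either case, because the chosen genes had no overlap between the groups. In both cases 15 of the 17 leukocyte markers were lower in F1.

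**Figure D3:**
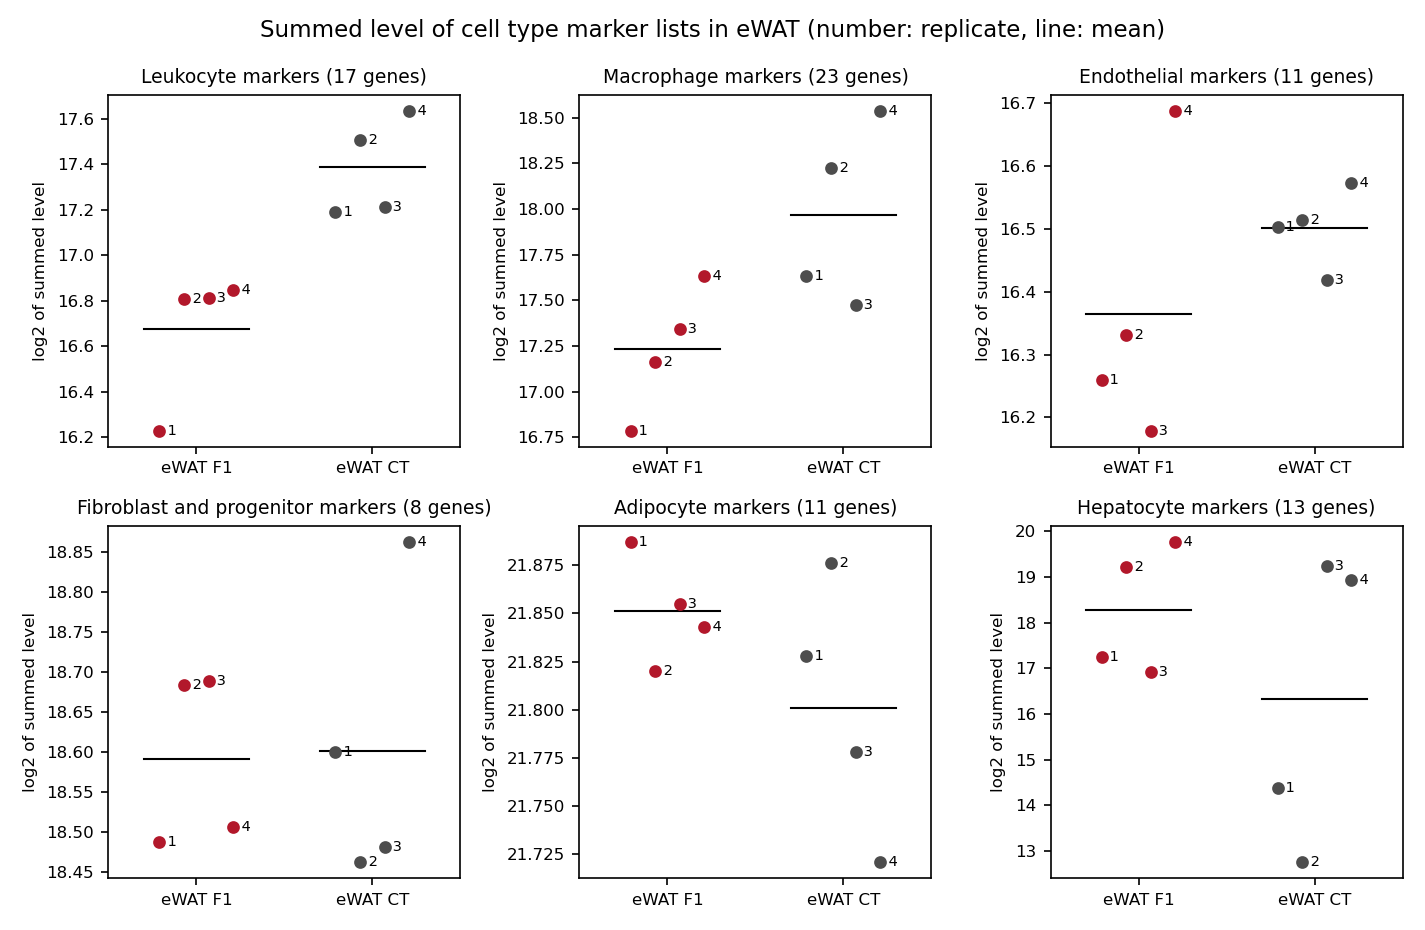
Log2 of the summed linear level of 6 cell type marker lists (vertical axis, separate scale per panel) in the eWAT F1 and eWAT CT libraries, with the replicate number beside each dot and a line at the group mean. The leukocyte list does not overlap between the groups (16.23 to 16.85 in F1, 17.19 to 17.63 in CT), the other 5 lists do.

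In liver the leukocyte list was level, with 8 of 17 markers lower in F1, a median of 0.02 and a summed level of 15.11 to 15.30 in F1 against 14.92 to 15.16 in CT. Without library Liver CT 2, 5 of the 17 were lower, and without library Liver CT 4, 12 of the 17 were. Lcp1 and Dock2, whose eWAT F1 libraries lay below all eWAT CT libraries, had all F1 livers above all CT livers (differences of 0.16 and 0.66, limma adjusted p = 0.795 and 0.428). Of 22 macrophage markers kept in liver 17 were higher in F1, with a median of 0.21, and their summed levels of 13.77 to 14.10 in F1 and 13.49 to 14.28 in CT overlapped. Of 5 markers of Kupffer cells, the resident macrophages of liver, 3 were higher in F1 and 2 lower, and the summed levels of 12.54 to 13.03 in F1 and 11.89 to 13.44 in CT overlapped. Clec4f differed by 0.77 with all F1 livers above all CT livers (2.68% of kept genes; limma adjusted p = 0.235), Vsig4 by 0.28 and Marco by -1.35 with overlap. Clec4f was below the 25th percentile in eWAT.

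The close relatives and cofactors of Runx1 were split in eWAT. Of 9 genes of the Runx complex that were kept, 5 were lower in eWAT F1 and 4 higher, with a median of -0.13. Groups that did not overlap were found for 0 of 9, beside 3.01% of kept genes with F1 below CT and 2.9% with F1 above. Cbfb, which encodes the DNA-binding partner of Runx1, differed by -0.21 and the relative Runx3 by 0.21. None of the genes on this or the other partner lists passed the test over all genes in either tissue (limma); in eWAT 1 of these 9 had an unadjusted p under 0.05, against 9.99% of all kept genes.

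Blood cell transcription factors, among them the ETS relatives of Fli1, gave 16 lower and 7 higher of 23 in eWAT, with a median of -0.08. Spi1, the ETS factor PU.1 of macrophages and B cells, averaged 14.80 in F1 and 15.55 in CT, and all its F1 libraries lay below its CT libraries, as did those of Mef2c. These were 2 of the 23, against 3.01% of kept genes. The ETS factors Erg and Ets1 differed by -0.04 and -0.08, and the lymphoid factor Ikzf1 by -0.25. Of 12 genes described as targets of Runx1 or Fli1, 6 were lower and 6 higher, with a median of 0.02. The macrophage growth factor receptor gene Csf1r differed by -0.49 (14.54 in F1 and 15.02 in CT) and the angiopoietin receptor gene Tek by -0.32, both with F1 libraries below all CT libraries. For Tek the gap was 0.07 (limma adjusted p = 0.520). With Spi1, which is on this list too, 3 of the 12 had this pattern, against 3.01% of kept genes.

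Around P2ry6, 11 of 21 nucleotide receptor and signalling genes were lower in eWAT F1 and 10 higher, with a median of -0.04. P2ry2, the receptor of ATP and UTP, averaged 7.33 in F1 and 8.09 in CT with no overlap (limma adjusted p = 0.374). Entpd1, the ectonucleotidase CD39, had 12.32 in F1 and 12.75 in CT with no overlap (limma adjusted p = 0.469). With Gna15, 3 of the 21 genes had all F1 libraries below all CT libraries, against 3.01% of kept genes. The ATP-gated channel gene P2rx7 differed by -0.48. On the higher side, Nt5e, the ectonucleotidase CD73, differed by 0.96 (limma adjusted p = 0.389) and the ADP receptor gene P2ry1 by 0.72, both with overlap. Entpd2, a second ectonucleotidase, was the single gene of the list with all F1 libraries above all CT libraries, as were 2.9% of kept genes.

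Of 15 partners of Pstpip1, 10 were lower in eWAT F1, with a median of -0.25. Its relative Pstpip2 differed by -0.60, the inflammasome adaptor Pycard by -0.32, the phosphatase Ptpn12 by -0.07 and Was by -0.04. Was was dim in eWAT, at 3.08 to 4.86 in F1 and 3.43 to 4.55 in CT, with library 25th percentiles of 3.44 to 3.55. In liver Was was too dim to be kept. The other 5 partners were higher, among them the inflammasome genes Nlrp3, by 0.85, and Casp1, by 0.33, both with overlap. Of 17 partners of Skap2, 16 were lower, with a median of -0.45, the lowest median of the 7 lists. Fyb, Sirpa, Fyn and Syk had all F1 libraries below all CT libraries, 4 of 17 against 3.01% of kept genes. Sirpa, the macrophage receptor for CD47 that binds Skap2, differed by -0.73 (limma adjusted p = 0.389). The adaptor Apbb1ip, which links Rap1 to integrins, differed by -0.57. The leukocyte markers were lower in the same libraries, and their part in these differences was not tested.

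The other ADP-ribosyltransferases and ADP-ribose hydrolases had a median near 0 in eWAT, at -0.01, with 11 of 17 lower and 6 higher. Groups without overlap were found for 0 of 17, beside 3.01% of kept genes with F1 below CT and 2.9% with F1 above. Parp10 had the largest difference, 0.52, with overlap (limma adjusted p = 0.412). It was the 1 gene of the list with an unadjusted p under 0.05 (limma), beside 9.99% of kept genes. Parp6 and Parp16, which like Parp8 add single ADP-ribose units, differed by 0.09 and -0.08. In liver Parp6 differed by -0.60 with all F1 livers below all CT livers, as were 2.69% of kept genes (limma adjusted p = 0.445), and so did those of the ADP-ribose hydrolase gene Macrod1, with -0.57. Parp11 ran the other way in liver, with a difference of 0.77 and all F1 livers above all CT livers (limma adjusted p = 0.223). The medians of the 7 partner lists in liver lay between -0.11 and 0.11, that of the Skap2 partners at 0.00.

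**Figure D4:**
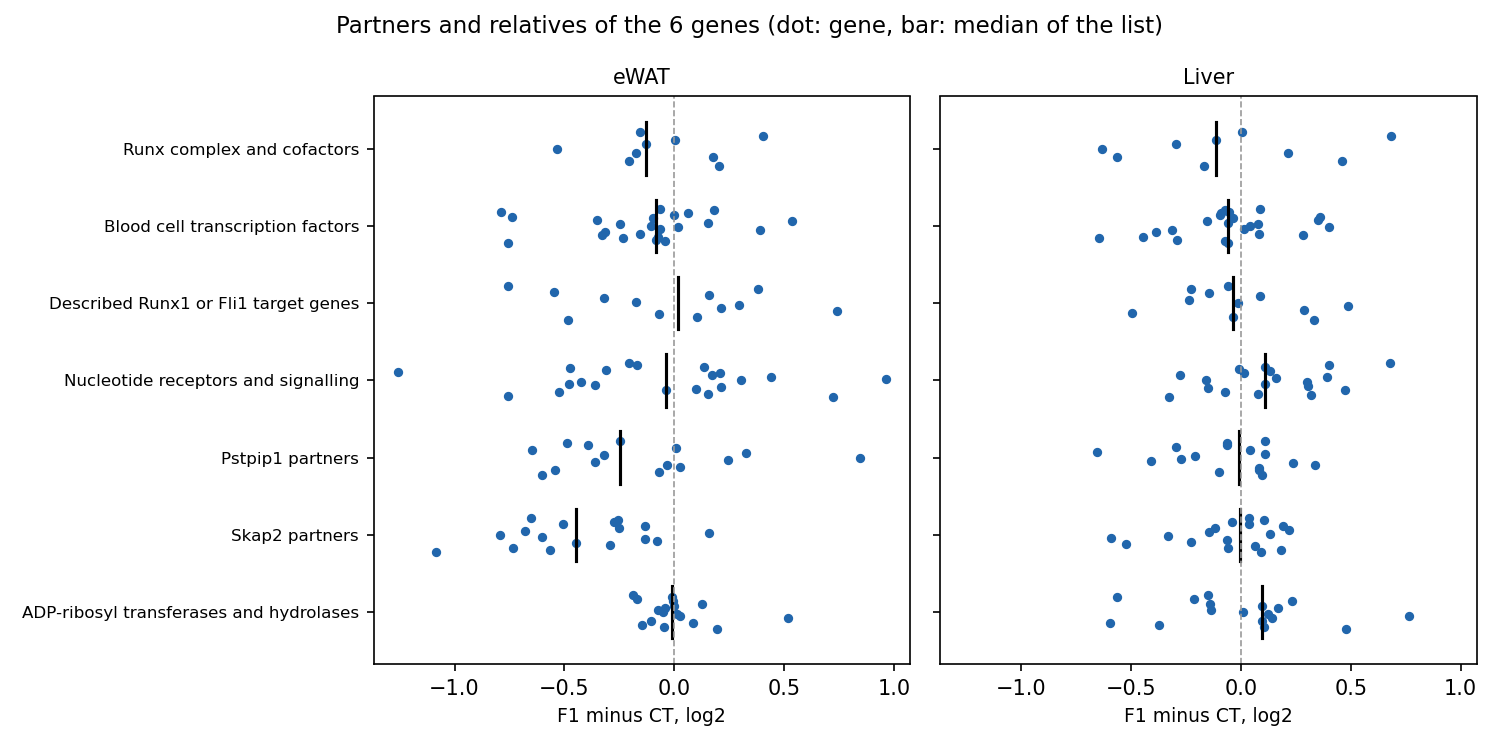
F1 minus CT difference on the log2 scale (horizontal axis) of the genes on 7 lists of partners and relatives of the 6 genes, in eWAT on the left and in liver on the right, with a dot per gene and a bar at each list's median. In eWAT the Skap2 partners lie farthest to the lower side (median -0.45, 16 of 17 lower) and the ADP-ribosyl list is centred near 0 (median -0.01).

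Outside the 6 genes, the lowest eWAT differences on the partner lists were those of Gna15, Fyb and Itgb2. Gna15, a G protein subunit gene of blood cells, had 5.24, 4.74, 5.44 and 4.51 in eWAT F1 and 5.70, 6.52, 6.01 and 6.73 in eWAT CT, a difference of -1.26 without overlap. Fyb, an adaptor that binds the Skap proteins, differed by -1.09 without overlap, and Itgb2, the shared chain of leukocyte integrins, by -0.80 with overlap.

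Likeness between genes was measured as the root mean square difference of their values over the 16 libraries, each gene first centred on its mean within each tissue, among 12919 genes kept in both tissues. Tnip3, an inhibitor of NF-kB signalling, was the nearest gene to Runx1 (0.31) and also to P2ry6 (0.28, as was Adamts5), beside a deviation of Runx1 and of P2ry6 from their own means of 0.53 and 0.54. Tnip3 itself differed by -1.03 in eWAT and 0.17 in liver. Fam126a was nearest to Fli1 (0.18), Rasgrf1 to Pstpip1 (0.28), Tm6sf1 to Skap2 (0.23) and Rnf150 to Parp8 (0.26). Tm6sf1 differed by -0.66 in eWAT and 0.45 in liver, opposite signs like those of Skap2. The values of both tissues entered the likeness, so the shared signs follow from how Tm6sf1 was picked.

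The other named neighbours were Speer4e and Gdpd5 for Runx1, Bmp2k and Tmem106a for Fli1, Nav1 for P2ry6, Kcnq1ot1 and Gimap1 for Pstpip1, Fbxl12 and Zyx for Skap2, and Kcnab2 and Ifitm1 for Parp8. Speer4e was dim in eWAT, at 3.11 to 3.58 in F1 and 3.73 to 4.64 in CT, with library 25th percentiles of 3.44 to 3.55. The likeness includes the eWAT difference that chose the genes, and all 18 named neighbours were lower in eWAT F1. By the mean absolute difference instead, 10 of the 18 were again among the nearest. Among the 15 pairs of the 6 genes themselves, Skap2 and Parp8 were closest (0.37), followed by Runx1 and P2ry6 (0.38), and Runx1 and Fli1 were farthest apart (0.59). In the eWAT libraries alone Fli1 and Pstpip1 were closest (0.20), and P2ry6 and Pstpip1 farthest apart (0.48).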

How the data were processed

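The log2 values analysed are those the authors deposited for 22206 probe sets in 16 libraries. Per the submitters' processing notes they were made with RMA in Transcriptome Analysis Console 4.0; RMA corrects background, normalizes the arrays and summarises probes. The genome build of the probe sets is not given in the sources used here. Sorted values of libraries differed by up to 0.2 within liver, 0.53 within eWAT and 1.39 to 1.71 between tissues, so each tissue was fitted apart. Probe sets were named through the platform annotation: 19572 had 1 symbol, 0 had several and 2634 had none. For 55 symbols with several probe sets the brightest was kept.

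F1 minus CT was fitted per tissue with limma 3.58.1 in R 4.3.3 (lmFit, eBayes, two-sided, Benjamini-Hochberg adjustment over all kept genes, threshold 0.05). Genes with a mean under the 25th percentile of all probe sets of the tissue were left out as dim. All 6 genes passed this filter in both tissues. eWAT minus liver was fitted on values quantile-normalized over 16 libraries. Summed levels are the log2 of the sum of linear values. Arrays have no read depth, so their number sets the precision. Alternatives were the dim filter, trend and robust moderation, a joint fit, other scalings, a replicate block and leaving out libraries. The fits were tested on simulated data.

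The 6 genes and the lists were chosen with earlier results of these data known. The text names the 6 genes, the close relatives, direct partners and defining markers of each list that had been marked for naming, the 3 nearest genes per gene and the 3 lowest partners outside the 6. Some further list genes are named besides, many of them with F1 and CT libraries that did not overlap, chosen after their values were seen. Replicate numbers were not taken as pairs.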

Additional observations from a re-analysis of the deposited data

Results flagged for a closer look

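Among 51 named genes in 4 groups each, 204 sets of 4 libraries, 18 had a library whose gap to its nearest neighbour was over 0.829 of the range of its group. Of these, 7 were in 6 genes that are named because a library stood apart in them, and 11 were in the 180 sets of the other genes, where chance gives about 1 in 20. Of the 6 genes described here 1 was among them: P2ry6 at 9.76 in library eWAT F1 4, the highest of its group and the one nearest to CT.

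The other such values in eWAT were Svs2 at 16.22 and Svs5 at 14.51, both of the seminal vesicle, and Adipoq at 19.24 in eWAT F1 1; Prm2 at 11.40 and Atp8b3 at 12.12, of testis, in eWAT CT 4; Tek at 11.53 in eWAT CT 1; Pecam1 at 13.76 in eWAT CT 2; and Adipoq at 18.95 in eWAT CT 3. In liver, Amy2a5 at 17.69 and Ctrb1 at 14.24, both pancreatic enzymes, and Was at 3.48 stood apart in Liver F1 4. Cd163 at 9.0 stood apart in Liver F1 1 and Plin1 at 3.46 in Liver F1 3. Library Liver CT 2 was the outlying one for 4 genes: Csf1r at 12.80, Laptm5 at 11.99, Adgre1 at 10.94 and Ctrb1 at 5.55.

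For Skap2 every liver F1 library lay above every liver CT library, with a difference of 0.55 that did not pass the test (limma adjusted p = 0.424) and a gap of 0.05, while in eWAT every F1 library lay below every CT library, as the choice of the gene required. The difference between the tissues was not tested, because the eWAT values had chosen the gene.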

How the results depend on the processing

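The median of the 6 genes in eWAT was -1.06 to -0.93 over the 8 runs that left out 1 library; its direction is fixed by the choice of the genes. In liver none of the 6 passed under any alternative (limma). With 1 liver library left out, Pstpip1 had -0.44 to 0.023 in liver and Parp8 -0.069 to 0.32. Pstpip1 turned to 0.023 without Liver F1 2 and to 0.01 without Liver CT 3, and Parp8 to -0.06 without Liver F1 4, -0.05 without Liver CT 1 and -0.069 without Liver CT 3. Against liver, all 6 kept their call in the 16 runs that left out 1 library, and Skap2 lost it with libraries centred on their median (0.13). Over all genes in eWAT, 25 passed when the 16 libraries were in 1 fit, against 0, and 0 to 1 when 1 library was left out, 1 without eWAT F1 4 or without eWAT CT 4. Over all genes in liver, 23 passed; trend and robust moderation gave 74 and the joint fit 51. Leaving out 1 liver library gave 7 to 24, with 7 without Liver F1 3 or Liver CT 2, 8 without Liver CT 4 and 10 without Liver F1 2 or Liver CT 3. The causes were not tested. By mean absolute difference 10 of 18 nearest genes were shared.

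The replicate numbers were not taken to pair the libraries: same-numbered libraries correlated at -0.31 to 0.21 in eWAT and -0.06 to 0.06 in liver. Between eWAT and liver they correlated at 0.03 to 0.05 in F1, where all 8 libraries correlated best with their own number, and at 0.00 to 0.04 in CT, where 4 of 8 did; this is a hint from the data, not the design. With the replicate block 6 genes passed in liver and 0 in eWAT, 0 of the 6 genes passed in liver, and all 6 kept their call between the tissues.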
